A study of Saccharomyces cerevisiae with 11 samples.

Results

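The genes described here encode protein subunits of the mitochondrial ribosome of budding yeast, chosen by symbol: MRPL followed by digits for the large subunit, and MRPS or RSM followed by digits for the small subunit. All 54 genes with such symbols in the S. cerevisiae gene table were measured, 34 of the large and 20 of the small subunit, among 5449 genes tested. Each was read by a single probe set. Subunit genes with other names, such as MRP1 or IMG1, are described apart.

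The mitochondrial ribosome translates the few messages of the mitochondrial genome, most of which encode membrane subunits of the respiratory chain and of the ATP synthase. Nearly all of its proteins are nuclear genes, translated in the cytosol and imported, while its RNAs come from the mitochondrial genome. Many of its proteins descend from bacterial ribosomal proteins, and others have no bacterial counterpart. The numbers in the yeast names do not follow the bacterial numbering. In yeast these genes are known to be transcribed together, and the messages of many are bound by Puf3, an RNA-binding protein.

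Yeast carrying the plasmid pRS426PPGK-CFTR-3HA, from which the human chloride channel CFTR is expressed with an HA tag (4 arrays), was compared with yeast carrying the vector pRSGPD426 (7 arrays). All cultures were kept in selective medium at 26 degrees and taken in mid log phase, and the labels used here name no strain. By the plasmid names the promoters differ, PGK in the CFTR plasmid and GPD in the vector, and any effect of that cannot be told apart from CFTR. CFTR itself was not measured here. The values are Affymetrix probe set intensities divided by each array's mean, and levels are given as log2 of that scaled intensity, so that they show RNA relative to the array's other RNA and not RNA per cell.

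The array medians of scaled intensity lay between 0.219 and 0.272. The sample codes in the titles run from 7 to 10 for CFTR, 3 to 5 for vector replicates 1 to 3 and 11 to 14 for vector replicates 4 to 7, so that an effect particular to codes 7 to 10 cannot be told apart from CFTR. Some vector arrays were near copies: the SD of their log2 difference was 0.11 for replicates 1 and 2 and 0.098 for replicates 5 and 7, where the median vector pair of 21 had 0.48. The titles of all vector arrays are marked as re-analysis and those of the CFTR arrays are not. Any effect of that difference cannot be told apart from CFTR. The labels tie no array to a culture of its own. Each p-value therefore measures spread between arrays that may be technical, and the number of arrays limits the precision. Over all genes (not independent replicates) the level profile of vector replicate 3 had r of 0.986 to 0.995 to CFTR arrays but 0.952 to 0.974 to its own group.

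The mitochondrial ribosomal protein genes were lowest together in 4 arrays, of which 3 were CFTR arrays and 1 was a vector array. Relative to each gene's own mean over the 11 arrays, the mean of the 54 genes was -0.48, -0.22 and -0.42 in CFTR replicates 2, 3 and 4, and 0.23 in CFTR replicate 1. In the vector group it was -0.30 in replicate 3 and -0.15 in replicate 4, and between 0.22 and 0.31 in replicates 1, 2, 5, 6 and 7. The mean of all genes, taken the same way, was 0.18 and 0.20 in vector replicates 1 and 2. In the other arrays it was -0.06 to -0.01. Beside all genes, the 54 thus stood less far up in vector replicates 1 and 2 than in replicates 5 to 7. By their own mean, CFTR replicate 1 stood with the higher vector arrays, and vector replicate 3 with the lower CFTR arrays.

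The same held gene by gene. CFTR replicate 1 lay above all of CFTR replicates 2 to 4 in 54 of 54 genes, by a median of 0.60 on the log2 scale (range 0.36 to 0.78), where the median over all genes was -0.01. Vector replicate 3 lay below all other vector arrays in 41 of 54 genes, by a median of -0.50 from their mean (-0.08 over all genes), and within the range of the CFTR arrays in 51. Vector replicate 4 lay below vector replicates 5 to 7 in 54 of 54, by a median of -0.44 from their mean (0.01 over all genes). CFTR replicate 2 was the lowest of the 11 arrays for 35 genes and CFTR replicate 4 for 10.

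**Figure D1:**
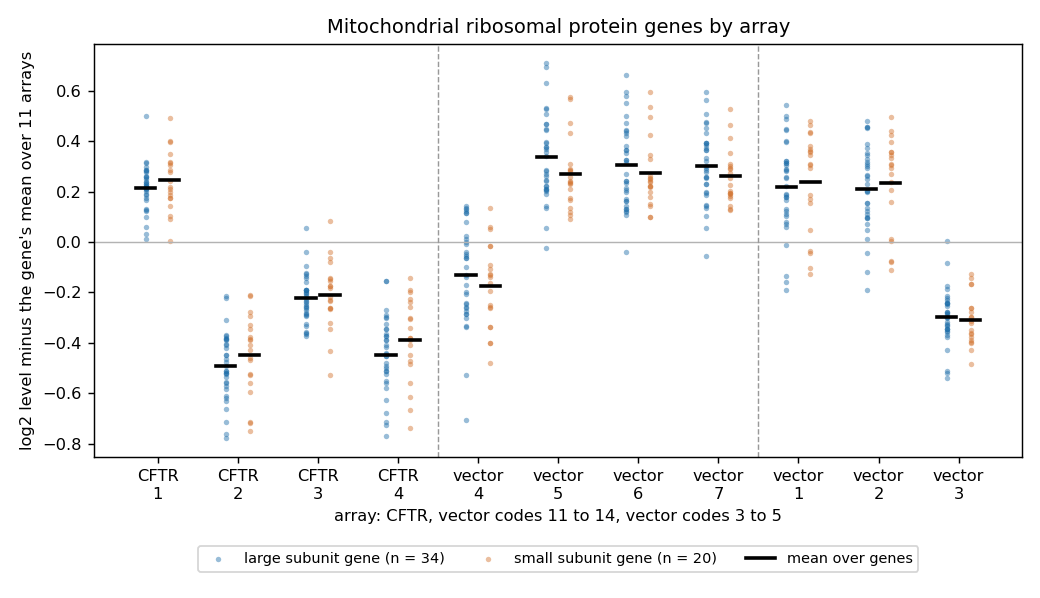
Level of each of the 34 large subunit genes (blue points) and 20 small subunit genes (orange points) in each array, on the y axis as log2 level minus the gene's mean over the 11 arrays, with the mean over genes as a black bar. CFTR replicates 2 to 4 and vector replicate 3 lie low, and both subunits take nearly the same position in every array.

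With all 11 arrays, 52 of the 54 genes had a negative log2 fold change of CFTR minus vector, and none passed the test. The median was -0.35, with a range of -0.75 to 0.09, where all genes tested had a median of -0.04 and 57.8% below 0. By limma with Benjamini-Hochberg adjustment over all genes, 0 of the 54 fell and 0 rose at an adjusted p under 0.05, where 0.422% of all genes passed as lower and 0.496% as higher. At an unadjusted p under 0.05, 22 of the 54 were lower and 0 higher, where 10.8% of all genes were lower and 7.3% higher. The smallest adjusted p among the 54 was 0.083. The CFTR and vector arrays overlapped in all 54 genes, where 3.34% of all genes lay wholly lower in CFTR and 2.4% wholly higher. With all arrays, then, no single one of the 54 genes passed the threshold after adjustment over all genes.

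**Figure D2:**
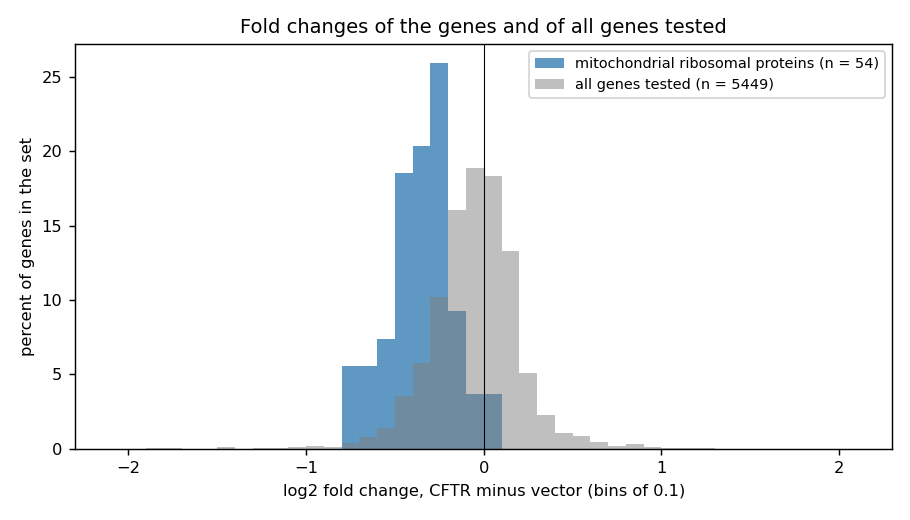
Log2 fold change of CFTR minus vector in bins of 0.1 (x axis) against the percent of genes in each set (y axis), for the 54 mitochondrial ribosomal protein genes in blue and all 5449 genes in grey. The blue distribution has its median at -0.35 and the grey at -0.04.

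In the large subunit, which carries the peptidyl transferase centre and the exit tunnel, 33 of 34 genes had a negative fold change, with a median of -0.36. MRPL4 encodes the form of bacterial protein L29, which lies by the exit of the tunnel. Its levels were -0.35, -1.12, -0.65 and -1.13 in the CFTR arrays, against a lowest of -0.55, a median of -0.24 and a highest of 0.33 in the vector arrays. CFTR replicate 1 lay within the vector range and the other CFTR arrays below it. The log2 fold change was -0.71 (SE 0.21, limma adjusted p = 0.12). MRPL3, a large subunit protein with no bacterial counterpart, had levels of 1.40, 0.57, 0.99 and 0.66 in the CFTR arrays, against a lowest of 1.13, a median of 1.64 and a highest of 1.85 in the vector arrays. Again only CFTR replicate 1 reached the vector range, and the lowest vector array was replicate 3. Its log2 fold change was -0.69 (SE 0.18, limma adjusted p = 0.083).

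Further large subunit genes with low ratios were MRPL7, the form of bacterial L5 (-0.63, SE 0.21), MRPL1, the form of L1 of the mobile stalk (-0.60, SE 0.19), and MRPL19, the form of L11 at the base of the factor-binding stalk (-0.59, SE 0.23). None of them passed the test (limma adjusted p = 0.15, 0.13 and 0.21). MRPL7 had 0.58, -0.30, 0.05 and -0.30 in the CFTR arrays, against 0.05 to 1.04 with a median of 0.53 in the vector arrays. MRPL1 had 0.83, 0.05, 0.34 and 0.08 in the CFTR arrays, against 0.34 to 1.26 with a median of 0.85 in the vector arrays. In both genes CFTR replicate 1 stood near the vector median and vector replicate 3 was the lowest vector array.

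At the other end of the large subunit stood MRPL37, MRPL31 and MRPL28, which have no bacterial counterparts. MRPL37 had 0.64, -0.07, 0.20 and -0.01 in the CFTR arrays, against a lowest of -0.56, a median of 0.12 and a highest of 0.47 in the vector arrays. CFTR replicate 1 lay above all vector arrays, CFTR replicates 2 and 4 lay below all of them but replicate 4, and the lowest vector array was replicate 4, not replicate 3. The log2 fold changes were 0.07 for MRPL37 (SE 0.19), -0.08 for MRPL31 (SE 0.12) and -0.19 for MRPL28 (SE 0.14). That of MRPL37 was -0.17 against the vector arrays of codes 3 to 5 alone, -0.08 without CFTR replicate 1 and -0.04 without vector replicate 4. That of MRPL31 was 0.03 against codes 3 to 5 alone, so that neither gene had a settled direction.

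**Figure D3:**
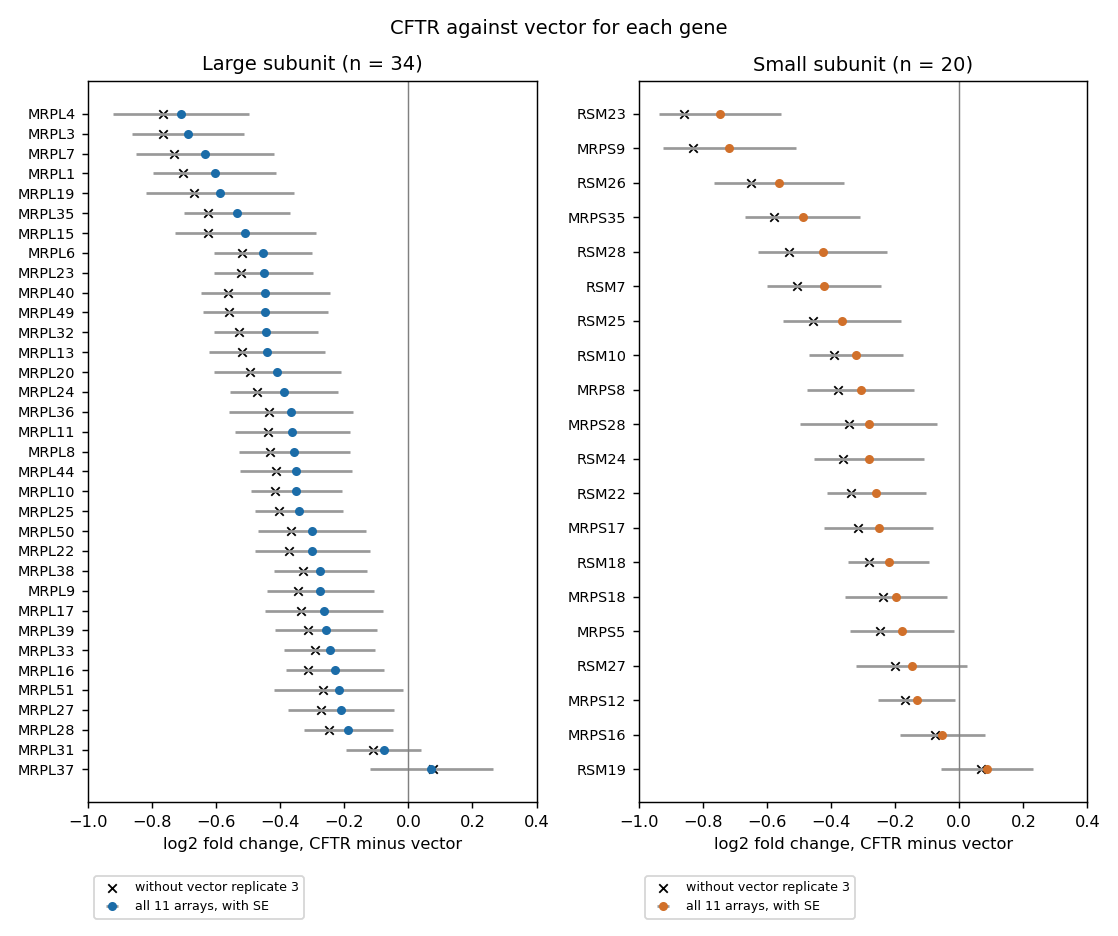
Log2 fold change of CFTR minus vector (x axis) for each large subunit gene (left, blue) and small subunit gene (right, orange), with 1 SE as a grey bar, and the fold change without vector replicate 3 as a cross. The points run from -0.71 to 0.07 in the large and from -0.75 to 0.09 in the small subunit, and all but MRPL37 and RSM19 lie below 0.

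In the small subunit, which holds the decoding site, 19 of 20 genes had a negative fold change, with a median of -0.28. RSM23, whose human relative is DAP3, a GTP-binding protein, had levels of 0.14, -0.58, -0.39 and -0.53 in the CFTR arrays. The vector arrays had a lowest of -0.26, a median of 0.57 and a highest of 0.63. The groups overlapped because CFTR replicate 1 lay above vector replicate 3, the lowest vector array. The log2 fold change of RSM23 was -0.75 (SE 0.19, limma adjusted p = 0.083).

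MRPS9, the form of bacterial S9, had levels of 1.33, 0.49, 0.81 and 0.50 in the CFTR arrays, against a lowest of 0.81, a median of 1.53 and a highest of 1.83 in the vector arrays (log2 fold change -0.72, SE 0.21, limma adjusted p = 0.11). CFTR replicate 3 and vector replicate 3 were at the same level, and CFTR replicate 1 was above both. RSM26, which resembles superoxide dismutases in sequence, had a log2 fold change of -0.56 (SE 0.20). MRPS35 had -0.49 (SE 0.18) and RSM28 had -0.43 (SE 0.20), and both are subunits with no bacterial counterpart. The adjusted p of these last 3 genes lay between 0.17 and 0.29 (limma).

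RSM19, MRPS16 and MRPS12, the forms of bacterial S19, S16 and S12, stood at the other end of the small subunit. RSM19 had 0.36, -0.35, -0.05 and -0.28 in the CFTR arrays, against a lowest of -0.47, a median of -0.21 and a highest of 0.04 in the vector arrays. The highest array was CFTR replicate 1 and the lowest vector replicate 4. The log2 fold changes were 0.09 for RSM19 (SE 0.14), -0.05 for MRPS16 (SE 0.13) and -0.13 for MRPS12 (SE 0.12). The direction of RSM19 turned to -0.06 without CFTR replicate 1 and to -0.12 with array weights. That of MRPS16 turned to 0.03 with quantile normalization and to 0.02 with median centring, and that of MRPS12 to 0.05 against vector codes 3 to 5 alone. MRPS12 and RSM19 are neighbours in the gene order of the R64 assembly, and over the 11 arrays their levels correlated at r = 0.74. That was below the median of 0.880 over all pairs of small subunit genes.

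RSM22, a methyltransferase-like protein, was under -1.17 in all 11 arrays. That is the 95th percentile of probe sets matched to no S. cerevisiae gene, taken here as the limit of background. Its size of change is therefore uncertain (log2 fold change -0.26, SE 0.16). The other 53 genes had mean levels above that limit.

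**Figure D4:**
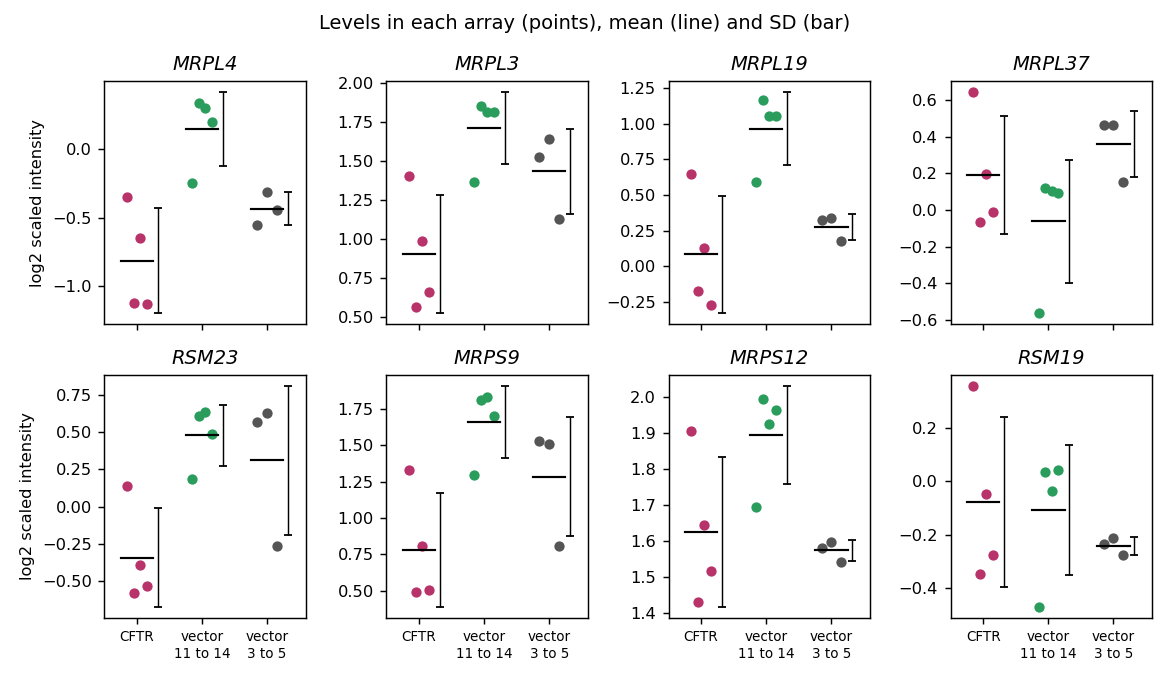
Log2 scaled intensity (y axis, a separate scale for each gene) of 4 large subunit genes (top) and 4 small subunit genes (bottom) in the CFTR arrays, the vector arrays of codes 11 to 14 and those of codes 3 to 5, with each array as a point, the mean as a line and the SD as a bar. In MRPL4, MRPL19 and MRPS12 the ranges of the vector code groups do not overlap, codes 11 to 14 lie higher, and replicate 4 is the lowest of them. In MRPL37 the ranges do not overlap either, but codes 11 to 14 lie lower. In RSM23 and MRPS9 vector replicate 3 lies apart from the other vector arrays.

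The large and small subunits moved together. The mean of the large subunit, relative to each gene's mean over arrays, was -0.24 ± 0.32 over CFTR arrays (SD, n = 4) and 0.14 ± 0.25 over vector arrays (SD, n = 7). That of the small subunit was -0.20 ± 0.31 over CFTR arrays (SD, n = 4) and 0.11 ± 0.25 over vector arrays (SD, n = 7). In each subunit the groups overlapped. The large minus the small subunit mean was -0.03, -0.04, -0.01 and -0.06 in the CFTR arrays, and -0.02, -0.02, 0.01, 0.04, 0.06, 0.03 and 0.04 in vector replicates 1 to 7. The mean of the 54 genes, by comparison, lay between -0.48 and 0.31 over the arrays. The medians of the fold changes, -0.36 for the large and -0.28 for the small subunit, differed by -0.08. Against vector codes 11 to 14 alone that difference was -0.12, and against codes 3 to 5 alone it was 0.01, so that no order of the subunits held across the choice of controls.

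Split by origin, the 21 large subunit genes with a bacterial counterpart had a median log2 fold change of CFTR minus vector of -0.37 and the 13 without had -0.34. In the small subunit the order was the other way, with -0.24 for the 12 genes with a bacterial counterpart and -0.40 for the 8 without. In neither subunit did a gene of either class pass the test with all 11 arrays.

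The correlation of levels over the 11 arrays gives the degree to which the genes varied as a unit. The median pairwise r was 0.905 over 561 pairs within the large subunit, 0.880 over 190 pairs within the small subunit and 0.884 over 680 pairs across the subunits. Over all pairs of the 5449 genes it was 0.17. With the group means removed the medians were 0.885, 0.892 and 0.883, against 0.19 over all pairs, so that the common variation lay within the groups as well. These are descriptions over 11 arrays, some of them near copies of each other, and pairs share their genes. With the mean of the other members, 27 of 34 large and 12 of 20 small subunit genes had r above 0.9. The lowest were MRPL37 at 0.46 and RSM19 at 0.60, both described above, and after them MRPS12 at 0.78 and MRPL51 at 0.78.

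The number of genes called rested on which arrays were compared. Without vector replicate 3, 12 of the 54 genes fell and 0 rose, 9 of the large and 3 of the small subunit, where 5.52% of all genes fell and 4.04% rose in that fit. The median was -0.41. In the large subunit these were MRPL3 (log2 fold change -0.77, adjusted p = 0.017), MRPL35 (-0.62, 0.019), MRPL1 (-0.70, 0.025), MRPL32 (-0.53, 0.036), MRPL7, MRPL6, MRPL23, MRPL49 and MRPL40. In the small subunit they were RSM23 (-0.86, adjusted p = 0.0074), MRPS9 (-0.83, 0.015) and MRPS35 (-0.58, 0.042). MRPL35 lies in the central protuberance of the large subunit, and MRPL32 is known as a protein whose cleavage by the m-AAA protease precedes its assembly into the ribosome. Since vector replicate 3 was low in these genes, leaving it out widens the difference by construction.

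Without CFTR replicate 1, all 54 genes had a negative fold change with a median of -0.49, yet 0 passed, where 0% of all genes fell in that fit. At an unadjusted p under 0.05, 44 of the 54 were lower there, where 10.8% of all genes were. Without both of these arrays the median was -0.55, and 33 of the 54 fell, 21 of the large and 12 of the small subunit, where 6.06% of all genes fell. That choice was made after seeing the data and removes the arrays that, in these genes, stood nearest the opposite group. Over all genes CFTR replicate 1 had r of 0.985 to 0.990 to the other CFTR arrays and 0.958 to 0.981 to the vector arrays other than replicate 3. With weights estimated per array, 52 of the 54 passed as lower, where 25.1% of all genes did. The weights there were 0.076 and 0.069 for vector replicates 1 and 2 and 0.29 for replicate 3, against 3.86 to 5.51 for replicates 5 to 7. Replicates 5 to 7 therefore dominated the vector mean in that fit. In the CFTR group the weight was 0.96 for replicate 1, against 2.44, 4.41 and 1.64 for replicates 2 to 4. The CFTR array nearest the vector group in these genes thus counted least in the CFTR mean.

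Against the vector arrays of codes 11 to 14 alone, 20 of the 54 genes fell and 0 rose, with a median of -0.38. In that fit 17% of all genes fell and 26.9% rose. Of the 20, 14 were large and 6 small subunit genes. The larger falls were in MRPL4 (-0.96, limma adjusted p = 0.0051), MRPL19 (-0.88, 0.0088) and MRPS9 (-0.88, 0.0075). Against codes 3 to 5 alone, 0 of the 54 passed, where 0% of all genes fell, and 2 were lower at an unadjusted p under 0.05, where 20.6% of all genes were. The median there was -0.30, beside -0.15 over all genes, so that the genes stood nearer to the rest than in the other fits. These fits share the CFTR arrays with each other. With the code ranges as groups of their own in a single fit, 4 of the 54 fell (MRPL3, MRPL4, MRPL35 and RSM23), where 4.06% of all genes did.

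Within the vector group the comparison of the code ranges shows how these genes vary without CFTR. The arrays of codes 11 to 14 had 37 of the 54 genes higher than those of codes 3 to 5 and 17 lower, with a median of 0.12 where all genes had -0.19. Of the 54, 6 rose and 0 fell, where 6.83% of all genes rose and 20.3% fell. The 6 were MRPL36, MRPL19, MRPL4, MRPL23, RSM7 and MRPS12, and all 6 are forms of bacterial ribosomal proteins. So are 21 of the 34 large and 12 of the 20 small subunit genes, by classes assigned after values were seen.

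MRPL36, the form of bacterial L31, had 1.35, 1.74, 1.64 and 1.69 in vector replicates 4 to 7, against 1.05, 1.03 and 0.93 in replicates 1 to 3. The ranges did not overlap (difference 0.60, SE 0.11, limma adjusted p = 0.012). MRPL19 had 0.59, 1.17, 1.05 and 1.05 in replicates 4 to 7, against 0.32, 0.34 and 0.17 in replicates 1 to 3 (difference 0.69, SE 0.14, limma adjusted p = 0.019). In MRPL19 vector replicates 1 and 2 were closer to replicate 3 than to replicates 5 to 7.

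In RSM7, the form of bacterial S7, the values were 0.61, 1.04, 0.89 and 0.88 in replicates 4 to 7, against 0.42, 0.39 and 0.12 in replicates 1 to 3 (difference 0.54, SE 0.13, limma adjusted p = 0.025). MRPS12, which shapes the decoding site, had 1.69, 1.99, 1.93 and 1.96 in replicates 4 to 7, against 1.58, 1.60 and 1.54 in replicates 1 to 3 (difference 0.32, SE 0.090, limma adjusted p = 0.038). MRPL4 (0.58, SE 0.15) and MRPL23 (0.39, SE 0.11) rose as well. The calls depended on single arrays: without vector replicates 1 to 7, each in turn, 0, 0, 6, 9, 1, 1 and 0 of the 54 passed as higher, where 1.47%, 1.28%, 17.1%, 4.99%, 2.17%, 2.46% and 1.71% of all genes did. Without replicate 3 a further 7 passed as lower, where 53.8% of all genes did. Without replicate 3 the median turned to -0.07, where all genes had -0.27. The count depended on scaling too, with 14 passing as higher after quantile normalization (12.4% of all genes) and 20 after median centring (13.2%).

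At the other end of this comparison MRPL37 had -0.56, 0.12, 0.10 and 0.09 in vector replicates 4 to 7, against 0.47, 0.46 and 0.15 in replicates 1 to 3 (difference -0.42, SE 0.19, limma adjusted p = 0.11). The ranges did not overlap, and the difference did not pass. MRPL51 had a difference of -0.33 (SE 0.23). In the large subunit 17 of 21 genes with a bacterial counterpart were higher at codes 11 to 14, with a median of 0.19, and 6 of 13 without, with a median of -0.0014. In the small subunit the counts were 7 of 12 with a bacterial counterpart and 7 of 8 without, so that this split by origin did not recur there.

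Subunit genes with other names also had mostly negative fold changes. Of 11 further large subunit genes, 10 had a negative fold change of CFTR minus vector (median -0.33), and of 14 further small subunit genes 13 had (median -0.36). The second list holds PPE1, a methylesterase once found with the small subunit. None of these 25 passed with all 11 arrays, where 0.422% of all genes fell. Without vector replicate 3, 1 of the 11 large and 6 of the 14 small subunit genes fell, where 5.52% of all genes did. MRP4, the form of bacterial S2, averaged 0.22 ± 0.42 over CFTR arrays (SD, n = 4) and 0.96 ± 0.32 over vector arrays (SD, n = 7) (log2 fold change -0.74, SE 0.20, limma adjusted p = 0.094). MNP1, the form of bacterial L7/L12, had -0.61 (SE 0.19, limma adjusted p = 0.12).

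Other genes of mitochondrial translation also had mostly negative fold changes of CFTR minus vector. All 14 mitochondrial tRNA synthetases had a negative fold change (median -0.31), as had 10 of 11 translation factors (-0.38), 18 of 20 translational activators and membrane receptors (-0.32), 12 of 13 ribosome assembly genes (-0.31) and all 5 genes of mitochondrial transcription and RNA turnover (-0.40). Within the vector group the array means of some of these lists were arranged otherwise than those of the 54. The values that follow are relative to each gene's own mean. The assembly genes were at 0.43 and 0.40 in vector replicates 1 and 2 against 0.11 to 0.16 in replicates 5 to 7. All genes were themselves at 0.18 and 0.20 in replicates 1 and 2, and at -0.06 to -0.04 in replicates 5 to 7. The transcription genes were at 0.21 and 0.26 in replicates 1 and 2, and at 0.11 to 0.23 in replicates 5 to 7. The translation factors were at 0.19 in vector replicate 4 against 0.13 to 0.16 in replicates 5 to 7. The median over the translation factors was instead lower in replicate 4, as in the 54 genes. It was -0.02 there against 0.11, 0.11 and 0.12 in replicates 5 to 7. In codes 11 to 14 minus 3 to 5, 11 of 13 assembly genes and 11 of 14 synthetases were below 0, with medians of -0.12 and -0.13. Of all genes 67.9% were below 0 there, with a median of -0.19, so that these lists went in the same direction as most genes. None of these genes passed with all 11 arrays (limma). Without vector replicate 3, 5 tRNA synthetases, 2 translation factors, 6 activators and receptors, 2 assembly genes and 2 transcription genes fell, where 5.52% of all genes did, and AIM23, a translation initiation factor, rose (log2 fold change 0.35, adjusted p = 0.042), where 4.04% of all genes did. The smallest adjusted p with all arrays in each list were those of MST1, the threonyl-tRNA synthetase (-0.68, SE 0.18), HER2, a subunit of the enzyme that makes glutaminyl-tRNA in mitochondria (-0.52, SE 0.14), OXA1, which inserts new proteins into the inner membrane (-0.43, SE 0.11), OMS1 (-0.54, SE 0.18) and MTF1, a mitochondrial transcription factor (-0.46, SE 0.14).

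The 34 nuclear genes of the respiratory chain and ATP synthase all had negative fold changes with all 11 arrays (median -0.34, 0 called). Against vector codes 3 to 5 alone, 25 of the 34 were below 0, with a median of -0.13. Of all genes 69.2% were below 0 in that fit, with a median of -0.15. Without vector replicate 3, 3 of the 34 fell, where 5.52% of all genes did. Their mean relative to each gene's own was 0.31, -0.53, -0.42 and -0.32 in CFTR replicates 1 to 4. In the vector arrays of codes 11 to 14 it was 0.13 to 0.45, and in vector replicates 1 to 3 it was 0.04, 0.01 and -0.37. In codes 11 to 14 against codes 3 to 5, 18 of the 34 rose, with a median of 0.43, where 6.83% of all genes rose and the median of all was -0.19. All 23 genes of mitochondrial protein import had a negative fold change of CFTR minus vector, with a median of -0.20, and 0 passed. The 128 cytosolic ribosomal protein genes went the other way with all arrays, with 126 above 0, a median of 0.10 and 0 called. Against vector codes 11 to 14 alone, 60 of the 128 were above 0 and 68 below, with a median of -0.01. Their mean was 0.04 to 0.10 in the CFTR arrays, and -0.28 and -0.32 in vector replicates 1 and 2 against -0.08 to 0.11 in the other vector arrays. The part that such array-wide differences play in the ribosomal protein genes was not tested.

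Among 9 regulators, HAP4, the activating subunit of the Hap complex that drives respiratory genes, had 0.46 ± 0.34 over CFTR arrays (SD, n = 4) and 0.96 ± 0.49 over vector arrays (SD, n = 7). Its log2 fold change was -0.50 (SE 0.25, limma adjusted p = 0.31), and without vector replicate 3 it fell (-0.67, adjusted p = 0.029). HAP2, a subunit of the same complex, had -0.37 (SE 0.10, adjusted p = 0.098) and also fell without vector replicate 3 (-0.43, adjusted p = 0.0099). In that fit 2 of the 9 regulators fell, where 5.52% of all genes did. With all 11 arrays 8 of the 9 were below 0, with a median of -0.14 and 0 called. Against vector codes 3 to 5 alone 5 of the 9 were below 0, where 69.2% of all genes were. Against codes 11 to 14 alone 5 were, where 44.0% of all genes were. In vector codes 11 to 14 minus 3 to 5, 2 of the 9 rose, where 6.83% of all genes did. PUF3 had -0.14 (SE 0.17, limma adjusted p = 0.71) in CFTR minus vector.

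**Figure D5:**
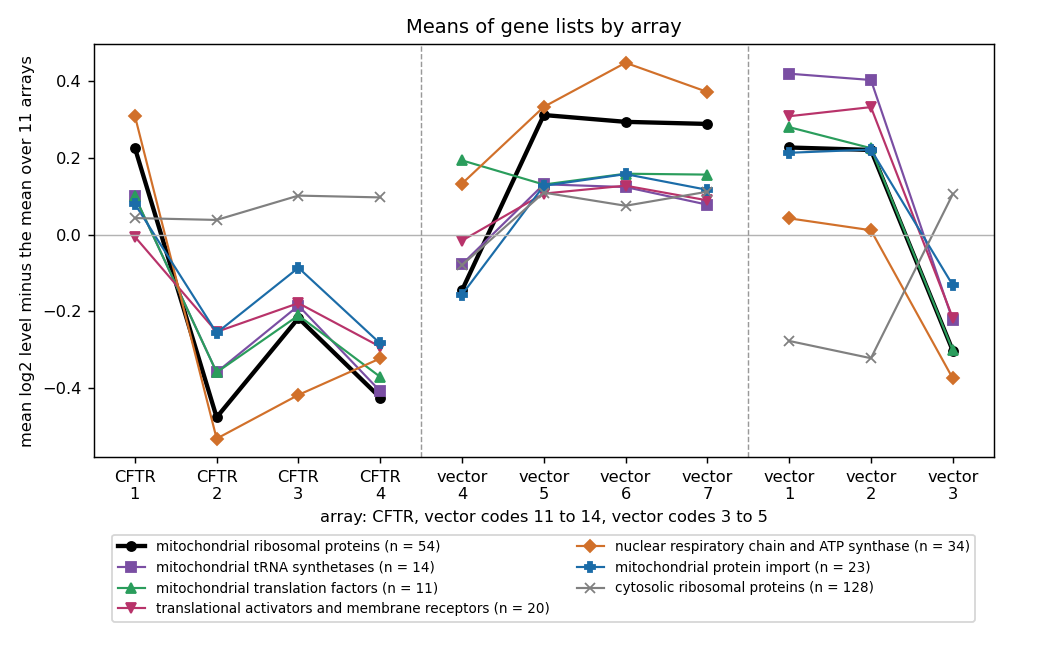
Mean of each gene list in each array (y axis, log2 level minus the gene's mean over the 11 arrays), for the 54 mitochondrial ribosomal protein genes in black and 6 other lists in colour. The mitochondrial lists are below 0 in CFTR replicates 2 to 4 and vector replicate 3, and the cytosolic ribosomal proteins in grey are low in vector replicates 1 and 2.

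Of all other genes, those most like the mean of the 54 over the 11 arrays were COX23 and CMC2 (r = 0.99 each), twin-CX9C proteins of the intermembrane space linked to cytochrome oxidase assembly, and the ribosomal genes RML2, MRP17 and PET123 (r = 0.986, 0.986 and 0.985). CMC2 had -0.20, -0.87, -0.70 and -0.87 in the CFTR arrays, and -0.72 in vector replicate 3 and -0.54 in replicate 4 against -0.12 to -0.08 in the other vector arrays. COX23 was under the background limit of -1.17 in all 11 arrays. Of the 100 genes most like the mean, 53 were in the lists above, and 17 of these were among the 25 further ribosomal protein genes. In all, 5449 genes were tested, and the lists were chosen with earlier results of these data known.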

How the data were processed

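Hot-phenol RNA of 4 CFTR and 7 vector samples was labelled by a 3' IVT protocol for Affymetrix arrays (per the labels). The deposited intensities are linear, and each array was found to average 1 over its 10715 probe sets. How probe sets were summarised and background was removed is not given in the labels or file. Scaling to the mean makes each value relative to its array.

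Groups follow the labels. Vector replicate numbers are the labels', and CFTR numbers follow accession order and only name arrays. The platform annotation matched 5498 probe sets to exactly 1 gene of the R64 table, used for names and gene order. The brightest probe set stood for each of 47 genes with several, which left 5449. Log2 values were used with no floor. The test was lmFit and trended eBayes of limma 3.58.1 (R 4.3.3), with a Benjamini-Hochberg threshold of 0.05, and was checked on simulated data. Levels of different probe sets were ranked to choose probe sets and genes to name, and set against the background limit. Figures used matplotlib 3.10.9.

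The members and lists were chosen with earlier results of these data known. Genes were chosen by rule: per subunit the 5 lowest and 3 highest fold changes, the 3 brightest and 2 dimmest, the 2 widest in range, the 3 at each end of the vector code comparison, and up to 8 called without vector replicate 3, then the 5 most alike genes and the 3 smallest p of each list. Of those chosen from the lists only some are given above. None are given from the respiratory chain, protein import and cytosolic ribosomal protein lists. PUF3, PPE1 and MRPL16 were named as background or for their place in a count. The classes by bacterial origin were assigned from general knowledge after values were seen. Alternatives were other scalings, eBayes settings, array weights, a filter on dim genes, probe set means, other controls and leaving out arrays.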

Additional observations from a re-analysis of the deposited data

Results flagged for a closer look

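For the 54 genes and for means over them, each group was searched for a single array far from its fellows, and chance alone flags about 1 in 20 groups. Of 114 searches 2 gave such an array. MRPL16 stood at -0.0041 in vector replicate 3, with the next vector array at 0.49. MRPL37 stood at -0.56 in vector replicate 4, with the next vector array at 0.092.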

How the results depend on the processing

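The median fold change of the 54 genes in CFTR minus vector kept its sign under all 24 alternatives, between -0.55 and -0.26, as did the median of each subunit. Leaving out arrays in turn gave 0 to 12 genes called lower, the 12 without vector replicate 3. Other settings called 52 (array weights, 25.1% of all genes), 20 (vector codes 11 to 14 as controls), 33 (without CFTR replicate 1 and vector replicate 3) and 4 (code ranges as groups of their own, 4.06% of all genes), and the remaining ones 0. Large minus small subunit median was -0.13 with array weights, -0.12 against codes 11 to 14 and 0.0052 against codes 3 to 5, the last of opposite sign. Without each array in turn it was -0.11 to -0.051.

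Single genes that changed sign in CFTR minus vector were MRPL37 (-0.17 against codes 3 to 5, -0.073 without both arrays, -0.079 to 0.19 leaving out arrays), MRPL31 (0.027 against codes 3 to 5), RSM19 (-0.12 with array weights, -0.078 without both arrays, -0.059 to 0.18 leaving out arrays), MRPS16 (0.028 after quantile normalization, 0.021 after median centring, 0.015 against codes 3 to 5, up to 0.0061 leaving out arrays) and MRPS12 (0.051 against codes 3 to 5).

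For vector codes 11 to 14 minus 3 to 5, median centring moved the median of all genes to 0.057, where it was -0.19. Members called higher were 14 after quantile normalization (12.4% of all genes) and 20 after median centring (13.2%). The large minus small median was 0.022 after quantile normalization. Leaving out arrays gave 0 to 9 higher, 0 to 7 lower, medians of -0.068 to 0.24 over all, -0.018 to 0.27 for the large and -0.13 to 0.20 for the small subunit, and 0.058 to 0.11 for their difference. MRPL17 turned to 0.041 and 0.065, MRPS28 to 0.025 and 0.043 and MRPS5 to 0.15 and 0.16 under quantile normalization and median centring, and MRPS18 to 0.063 under median centring. MRPS5 ran from -0.32 to 0.034 leaving out arrays. The causes were not tested. No paired analysis was possible because the labels number only the vector replicates. Dim probe sets limit RSM22 and COX23.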
